A study of Ipomoea batatas with 18 samples.

Results

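Between 2 sweetpotato (Ipomoea batatas) cultivars, 40 of 46840 unigenes were at least 2-fold apart in all root libraries at 30 days of age. Their cultivar means were close at 100 days. A unigene is a transcript of a de novo assembly, and its level is given in FPKM, a count of sequenced fragments scaled to transcript length and library size. The 40 were selected on measured values: a unigene was taken when the lowest FPKM of one cultivar at 30 d was above 0 and at least 2 times the highest FPKM of the other. In addition, the means of log2(FPKM + 1) of the cultivars had to differ by less than 0.5 at 100 d, and the mean over all 18 libraries had to reach 5 FPKM, as it did for 16616 unigenes. The high-starch cultivar Chuanshu 218 was the higher one at 30 d for 19 of the 40 and the low-starch cultivar 15-94 for 21. Because the 30 d and 100 d values chose them, the 30 d gap and its size at 100 d are descriptions and carry no test. The 65 d libraries entered the choice only through the overall mean, so the cultivar difference at 65 d was tested.

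The 6 groups were Chuanshu 218 at 30, 65 and 100 d and 15-94 at 30, 65 and 100 d, with 3 libraries each, made from total RNA of roots. These are whole-root samples, so fewer cells of a type and less RNA per cell cannot be told apart. All plants were grown in greenhouse pots under natural light, and the labels mention 18 pots per cultivar. The labels name no treatment, do not say whether the roots were thin or swollen, and do not tie a library to a plant. The spread between libraries may therefore be partly technical. Starch class and cultivar coincide, so a difference between the cultivars cannot be assigned to starch.

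Sweetpotato plants first form thin adventitious roots. Some of them swell into storage roots when the cambium adds parenchyma cells that fill with starch, while roots whose central cylinder lignifies stay thin. Cultivars can differ in when and how far this swelling goes, which is the setting in which transcript gaps that change with age are of interest. The table gives unigene numbers without gene names, and 0 of the IDs matched the gene table of assembly IBA_r1.0. The 40 unigenes are therefore described by cultivar, age and level, root markers could not be checked, and 2 IDs are named in each direction.

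Some libraries stood apart. The 10 most abundant unigenes took 25.8% of the FPKM in 15-94 at 65 d replicate 3 and 40.5% in 15-94 at 100 d replicate 3, against 5.45% to 17.3% in the other libraries. The log2 value of 1 read in FPKM, a measure of relative depth set to 0 in the library where it is smallest, averaged 0.58 ± 0.60, 0.54 ± 0.41 and 0.36 ± 0.12 in Chuanshu 218 at 30, 65 and 100 d (SD, n = 3 each). In 15-94 it averaged 1.47 ± 0.53, 0.86 ± 0.20 and 1.03 ± 0.14 (SD, n = 3 each). Larger values stand for shallower libraries, provided that no further scaling was applied to the FPKM. The sum of FPKM ran from 731156 to 1471677 per library, and the number of reads is unknown.

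Gaps of this kind were a small share of the early gaps. Of 391 unigenes with the 30 d gap toward Chuanshu 218, 19 (4.86%) met the limit at 100 d, 367 kept a difference of at least 0.5 in the same direction and 5 had one in the opposite direction. Of 428 with the 30 d gap toward 15-94, 21 (4.91%) met the limit, 406 kept the difference and 1 was turned round. The mirrored choice, a gap of at least 2 times at 100 d with 30 d means within 0.5, held more unigenes, 61 toward Chuanshu 218 and 77 toward 15-94. These are counts and not shares of all 100 d gaps. Chuanshu 218 libraries at 30 d varied more than those at 100 d: the median SD of log2(FPKM + 1) over the 16616 unigenes was 0.62 at 30 d and 0.38 at 100 d in Chuanshu 218, and 0.59 and 0.44 in 15-94. A gap between all libraries is harder to reach where the spread is wide. The part of this in the unequal numbers of early and late gaps was not tested.

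The choice had close neighbours on either side of each limit. Among the unigenes toward Chuanshu 218, the smallest ratio of lowest to highest library at 30 d was 2.03 inside the limit, and the nearest outside it was 1.98. The 100 d differences on either side of 0.5 were 0.488 and 0.510, and the overall means on either side of 5 FPKM were 5.01 and 4.88. For those toward 15-94 the ratios were 2.03 and 1.95, the 100 d differences 0.493 and 0.555, and the means 5.38 and 4.92 FPKM.

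The 19 unigenes higher in Chuanshu 218 at 30 d were of modest abundance, with overall means of 5.01 to 29.6 FPKM and a median of 8.68 FPKM. The median for all 16616 unigenes with an overall mean of at least 5 was 17.9 FPKM. The median over the 19 was 13.4, 17.4 and 13.5 FPKM in the 3 Chuanshu 218 libraries at 30 d, and 1.88, 2.69 and 3.77 FPKM in the 3 libraries of 15-94. At 65 d it was 11.3, 11.8 and 18.6 FPKM in Chuanshu 218, against 8.08, 7.88 and 6.14 FPKM in 15-94. At 100 d it was 6.76, 6.70 and 9.06 FPKM in Chuanshu 218, against 7.19, 7.90 and 5.92 FPKM in 15-94. The library medians of the 2 cultivars lay apart at 30 d and at 65 d and overlapped at 100 d. The 30 d separation and the nearness at 100 d follow from the choice. A listed 0 occurred in 5 of the 19, and in 4 of them in a 30 d library of 15-94. That group had the largest mean value of 1 read (1.47, log2), and its part in these zeros was not tested.

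**Figure D1:**
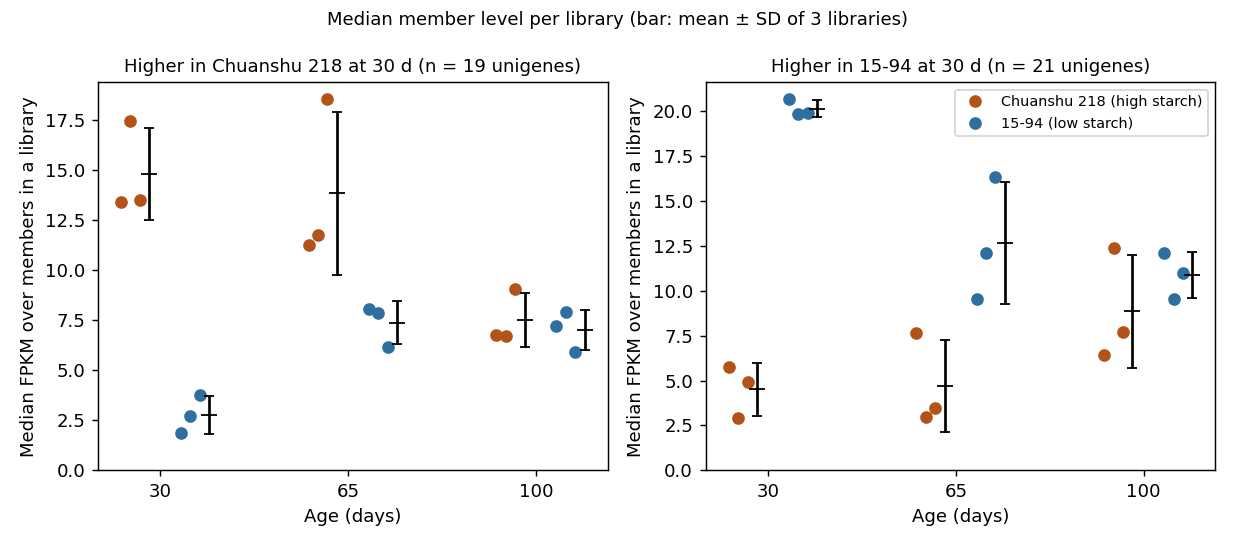
Median FPKM over the 19 unigenes higher in Chuanshu 218 at 30 d (left) and the 21 higher in 15-94 at 30 d (right), by age in days, with 1 point per library and the mean ± SD of 3 libraries as a bar. On the left, 15-94 averaged 7.37 FPKM at 65 d and 7.0 at 100 d, while Chuanshu 218 averaged 13.9 at 65 d and 7.51 at 100 d.

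Iba_14682 had the widest 30 d difference toward Chuanshu 218. It had 18.1, 117.4 and 31.3 FPKM in Chuanshu 218 at 30 d, against 1.53, 0.12 and 4.21 FPKM in 15-94. The 65 d libraries had 3.82, 9.04 and 53.0 FPKM in Chuanshu 218, against 4.36, 3.11 and 3.03 FPKM in 15-94. At 100 d it had 4.31, 2.0 and 0.99 FPKM in Chuanshu 218, against 2.09, 2.11 and 0.73 FPKM in 15-94. In Chuanshu 218 the 100 d libraries all lay below the 30 d libraries, while no 15-94 library of any age exceeded 4.36 FPKM. At 65 d the groups overlapped through 1 Chuanshu 218 library, and the log2 difference of 1.63 (SE 0.80) did not pass (limma, adjusted p = 0.299). Without Chuanshu 218 replicate 3 of that age it was 0.64.

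Iba_34435, the most abundant of the 19, showed the other form. It had 18.4, 30.3 and 59.0 FPKM in Chuanshu 218 at 30 d, against 4.28, 3.25 and 4.13 FPKM in 15-94. The libraries of 65 d had 179.2, 37.7 and 19.9 FPKM in Chuanshu 218, against 8.08, 7.88 and 22.8 FPKM in 15-94. At 100 d it had 19.6, 21.5 and 34.1 FPKM in Chuanshu 218, against 29.1, 9.66 and 23.1 FPKM in 15-94. The 15-94 libraries at 30 d lay below all 15 others, and the Chuanshu 218 ranges at 30 and 100 d overlapped. At 65 d the log2 difference was 2.08 (SE 0.76), with an adjusted p of 0.159 by limma in the 6 libraries of that age and 0.0493 when all 18 libraries gave the spread. That pass was lost with relative depth added to the 18-library fit (adjusted p = 0.0587), and the difference was 1.2 without Chuanshu 218 replicate 1 of 65 d.

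**Figure D2:**
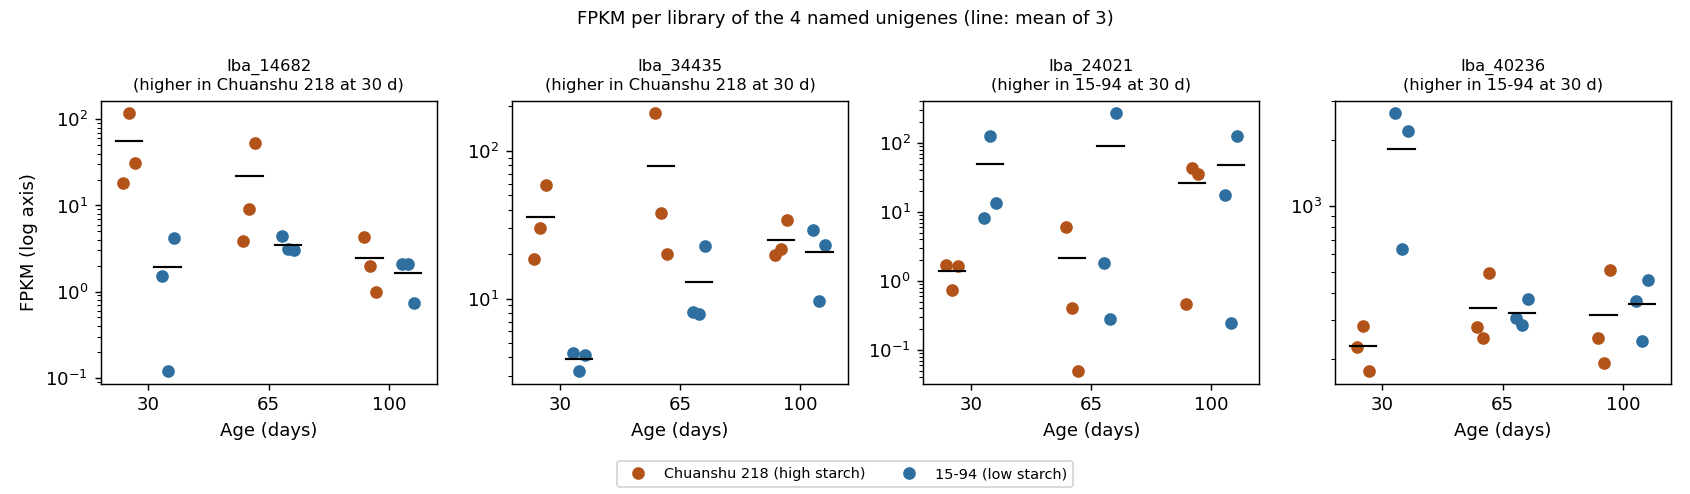
FPKM on a log axis of the 4 named unigenes in each library by age in days, with Chuanshu 218 left of 15-94 at each age and a line at the mean of 3 libraries. Iba_40236 stands at 634.2 to 2639 FPKM in 15-94 at 30 d and at 176.6 to 507.7 FPKM in every other library, while Iba_24021 spans 0.25 to 125.3 FPKM within 15-94 at 100 d.

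The 21 unigenes higher in 15-94 at 30 d had overall means of 5.38 to 563.9 FPKM, with a median of 11.9 FPKM. The median over the 21 was 5.76, 2.89 and 4.92 FPKM in the Chuanshu 218 libraries at 30 d, against 20.7, 19.8 and 19.9 FPKM in those of 15-94. At 65 d it was 7.63, 2.94 and 3.49 FPKM in Chuanshu 218, against 9.55, 12.1 and 16.3 FPKM in 15-94. At 100 d it was 6.44, 12.4 and 7.72 FPKM in Chuanshu 218, against 12.1, 9.56 and 10.99 FPKM in 15-94. As in the opposite direction, the library medians lay apart at 30 and 65 d and overlapped at 100 d. None of the 21 had a listed 0 in any library.

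Iba_24021 had the widest 30 d difference toward 15-94. It had 1.73, 0.75 and 1.63 FPKM in Chuanshu 218 at 30 d, against 8.19, 126.3 and 13.2 FPKM in 15-94. Its 65 d values were 5.97, 0.41 and 0.05 FPKM in Chuanshu 218, against 1.80, 0.28 and 266.7 FPKM in 15-94. At 100 d it had 0.47, 42.5 and 35.0 FPKM in Chuanshu 218, against 17.6, 0.25 and 125.3 FPKM in 15-94. After 30 d the libraries of both cultivars spread widely. The 95% interval of the 100 d log2 difference ran from -4.52 to 4.29. Its highest values at 65 and 100 d were in the 2 libraries of 15-94 that stood apart. The log2 difference at 65 d was -2.18 (SE 1.72, limma adjusted p = 0.554), and it was 0.20 without 15-94 replicate 3 of that age.

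Iba_40236 was the most abundant of the 40. It had 226.0, 283.8 and 176.6 FPKM in Chuanshu 218 at 30 d, against 2639, 634.2 and 2185 FPKM in 15-94. At 65 d it had 281.1, 248.3 and 493.7 FPKM in Chuanshu 218, against 306.3, 285.0 and 376.8 FPKM in 15-94. At 100 d it had 248.1, 191.8 and 507.7 FPKM in Chuanshu 218, against 367.4, 242.1 and 456.9 FPKM in 15-94. Only the 15-94 libraries at 30 d stood apart, above all 15 others. The 65 d groups overlapped, with a difference of 0.02 on the log2 scale (SE 0.46, adjusted p = 0.988 by limma) and a 95% interval from -1.01 to 1.05, so a 2-fold difference in either direction lay at the edge of what these libraries leave possible.

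**Figure D3:**
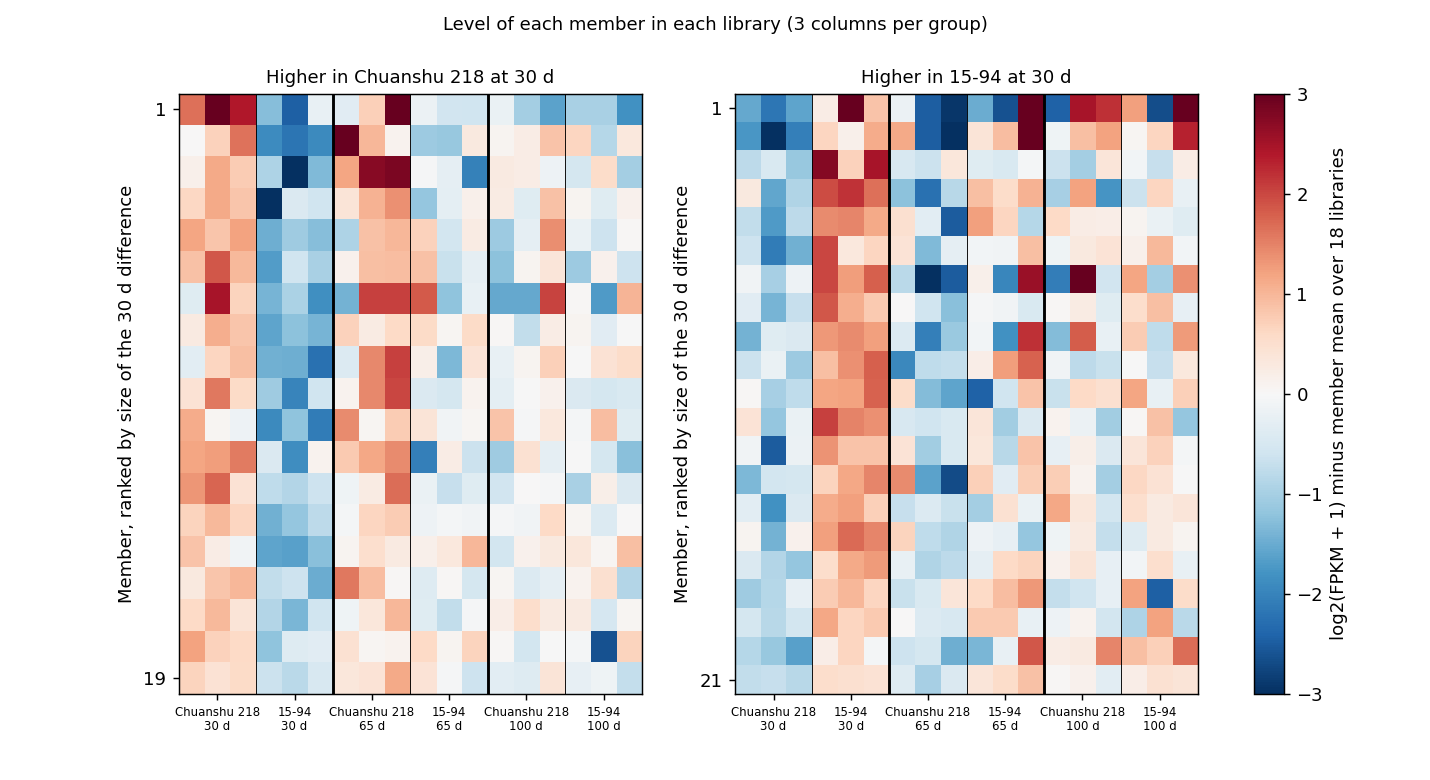
Each row is 1 of the 19 (left) or 21 (right) unigenes, ranked by the size of the 30 d difference, and each column 1 library, with 3 per group, ages in order and Chuanshu 218 left of 15-94. Colours give log2(FPKM + 1) minus the unigene's mean over 18 libraries and saturate at 3 in either direction. At 30 d every value of one cultivar is above every value of the other by choice, though not always on opposite sides of that mean. The 100 d columns of both are pale in most rows.

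The median gap at 65 d lay between those at 30 d and 100 d in both directions. The median log2 difference, Chuanshu 218 minus 15-94, of the 19 was 2.09 at 30 d, 0.77 at 65 d and 0.28 at 100 d. At 65 d it ran from -0.24 to 3.02 among them. It had the sign of 30 d in 17 of 19, was at least 1 in 9, lay between 0.5 and 1 in 6 and was under 0.5 in size in 4. For the 21 the median was -1.96 at 30 d, -0.96 at 65 d and -0.33 at 100 d, with 65 d values from -3.28 to 0.19. There the sign of 30 d was kept in 19 of 21, with 10 of at least 1 in size, 4 between 0.5 and 1 and 7 under 0.5. Single unigenes did not all follow the medians. In size, the 65 d difference lay between those of 100 d and 30 d for 15 of the 19 and 13 of the 21, was larger than at 30 d for 1 and 3, and was smaller than at 100 d for 3 and 5. Over the 16616 unigenes the median difference was 0.03 at 30 d, 0.01 at 65 d and 0.02 at 100 d. Without 15-94 replicate 3 of 65 d, which held the highest of the 18 values for 6 of the 21, the median of the 21 at 65 d was -0.55. Without Chuanshu 218 replicate 3 of that age the median of the 19 was 0.52.

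**Figure D4:**
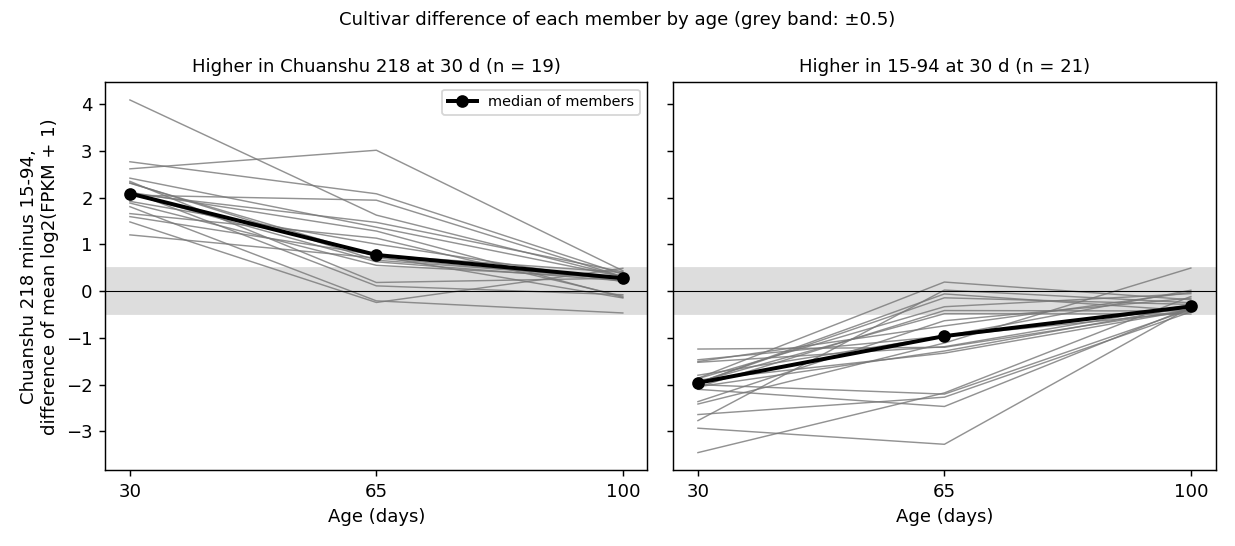
Cultivar difference, Chuanshu 218 minus 15-94, of mean log2(FPKM + 1) by age in days, with 1 grey line per unigene, the median in black and a grey band at ±0.5. At 100 d all lines end inside the band, as the choice required, while at 65 d they run from -0.24 to 3.02 on the left and from -3.28 to 0.19 on the right.

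At 65 d, limma called 1 of the 19 higher in Chuanshu 218 and 1 of the 21 lower, with an adjusted p under 0.05 over the 32529 unigenes tested and at least a 2-fold difference. The same test called 3.21% of all unigenes tested higher and 2.34% lower, and 2.85% and 2.62% of those with an overall mean of at least 5 FPKM. All 40 were among the unigenes tested. With 1 of 19 and 1 of 21, the share called was not set apart from that background. An unadjusted limma p under 0.05 was reached by 6 of the 19 and 6 of the 21, each with the direction of 30 d. Of all unigenes tested, 12.3% reached it with Chuanshu 218 higher and 7.93% with 15-94 higher. These shares include unigenes with an overall mean under 5 FPKM, which the 40 do not, so the abundance is unlike.

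The called unigene toward Chuanshu 218, the third in size of the 30 d difference and without a printed ID, had 25.7, 76.3 and 81.8 FPKM in Chuanshu 218 at 65 d, against 10.4, 8.74 and 1.90 FPKM in 15-94. Its 65 d log2 difference was 3.02 (SE 0.64, limma adjusted p = 0.0287), larger than the 2.62 at 30 d. The called unigene toward 15-94 was the fourth in size of the 30 d difference. It had 1.31, 0.15 and 2.08 FPKM in Chuanshu 218 at 65 d, against 9.24, 7.04 and 10.2 FPKM in 15-94, which differ by -2.27 on the log2 scale (SE 0.55, adjusted p = 0.0450 by limma). Neither group of libraries overlapped the other in either case. Both counts of 1 changed when 1 library was left out. They were 0 without any 1 of the 65 d libraries except Chuanshu 218 replicate 1, and 2 without that one. In the fits with counts of 0, calls over all unigenes also fell. They went from 1043 to between 113 and 398 higher, and from 762 to between 73 and 563 lower. Without Chuanshu 218 replicate 1 they were 1242 and 697. With all 18 libraries in the fit the counts were 3 and 4, where 6.19% and 4.03% of all unigenes tested were called higher and lower. That fit takes part of its spread from the 30 d libraries that chose the unigenes. With the replicate number as a block in the 6 libraries of 65 d, the counts were 2 and 2, where 4.23% and 3.26% of all were called higher and lower.

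The 65 d libraries of the cultivars did not overlap, in the direction of 30 d, for 6 of the 19 (31.6%) and 4 of the 21 (19.0%). Among unigenes with an overall mean of at least 5 FPKM, 11.9% did not overlap with Chuanshu 218 higher and 11.4% with 15-94 higher. Not overlapping in the opposite direction were 0 of the 40. Among the unigenes whose 30 d gap stayed until 100 d, the shares were 316 of 367 (86.1%) toward Chuanshu 218 and 342 of 406 (84.2%) toward 15-94, and limma called 260 (70.8%) and 274 (67.5%) of them in that direction at 65 d. Their median 65 d differences in the direction of 30 d were 3.24 and 3.19 (log2), but they also began wider, at 3.20 and 3.42. In the late-opening gaps, 21 of 61 (34.4%) and 20 of 77 (26.0%) did not overlap at 65 d, and limma called 5 and 6. No test of these differences between sets was made, since their choice used different 100 d values.

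The close means at 100 d did not show equal levels. The 95% interval of the 100 d difference, from a limma fit of the 6 libraries of that age, stayed within a 2-fold difference in either direction for 3 of the 19 and 1 of the 21. The median half-width of the interval was 0.97 and 1.06 (log2). The sign of the 30 d difference was kept at 100 d in 14 of the 19 and 19 of the 21, within the 0.5 allowed. The 100 d libraries still did not overlap, in the direction of 30 d, for 1 of the 19 and 1 of the 21, and for 1 further unigene of the 21 they did not overlap in the opposite direction. The background of 100 d libraries that did not overlap was 16.8% with Chuanshu 218 higher and 18.9% with 15-94 higher, and the limit of 0.5 keeps the count low by itself. The interaction of cultivar and age from 30 to 100 d, which asks whether the gap changed, called 0% of the 32529 unigenes by limma, 0 of the 19 and 0 of the 21, of which 16 and 11 had an unadjusted limma p under 0.05. At an unadjusted limma p under 0.05 there were 1683 unigenes, where 1626 would be reached by chance, and the smallest adjusted p was 0.92. The 30 d contrast itself was called for 16 of the 19, with 4.25% of all unigenes called higher, and for 11 of the 21, with 2.90% called lower. Both contrasts were used by the choice and nothing is read from these counts.

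Within the cultivars, means at 30 and 100 d moved toward each other from both sides. Between 30 and 100 d the median change of the 19 on the log2(FPKM + 1) scale was -0.90 in Chuanshu 218 and 1.01 in 15-94. The mean at 100 d was below that at 30 d in Chuanshu 218 and above it in 15-94 for 17 of the 19. For the 21 the median change was 0.74 in Chuanshu 218 and -0.89 in 15-94, and 18 of the 21 were lower at 100 d in 15-94 and higher in Chuanshu 218. Over all 16616 unigenes the median changes were 0.00 and 0.02. The cultivar that was higher at 30 d had the larger change in 10 of the 19 and 13 of the 21. High 30 d values in one cultivar and low ones in the other chose these unigenes, so changes toward each other are partly built into the choice and were not tested.

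At 65 d most means of 15-94 lay nearer to those of 100 d than to those of 30 d, and most means of Chuanshu 218 nearer to those of 30 d. In 15-94 the median change of the 19 was 1.10 from 30 to 65 d and -0.01 from 65 to 100 d, and in Chuanshu 218 it was -0.04 and -0.80. From 65 to 100 d the mean was lower in Chuanshu 218 for 19 of 19, against 8463 of all 16616 unigenes. It was lower for 71 of 77 late-opening gaps toward 15-94. For the 21 the medians were -1.0 and 0.10 in 15-94, and 0.19 and 0.71 in Chuanshu 218. The mean of Chuanshu 218 at 100 d was above that at 65 d for 19 of 21, against 8089 of all 16616. The same held for 54 of 61 late-opening gaps toward Chuanshu 218. The 100 d values took part in the choice, so these counts carry no test. Single unigenes varied around the small medians. From 30 to 65 d in Chuanshu 218 they changed by -1.6 to 1.56 among the 19 and by -1.79 to 0.99 among the 21. From 65 to 100 d in 15-94 they changed by -1.11 to 0.67 and by -1.19 to 1.27. The 65 d mean of Chuanshu 218 was nearer to its 30 d mean than to its 100 d mean for 14 of the 19 (73.7%) and 15 of the 21 (71.4%). These counts were 12 and 10 with Chuanshu 218 replicate 3 of 65 d left out. The 65 d mean of 15-94 was nearer to its 100 d mean for 17 of the 19 (89.5%) and 16 of the 21 (76.2%).

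Each element of this order was also met by most unigenes of the series, but both together by fewer. Among all 16616 unigenes the 65 d mean was nearer to the 30 d mean for 65.0% in Chuanshu 218, and nearer to the 100 d mean for 72.5% in 15-94. Both held together for 13 of the 19 (68.4%) and 12 of the 21 (57.1%), against 47.2% of all. In the late-opening gaps they did for 30 of 61 (49.2%) toward Chuanshu 218 and 50 of 77 (64.9%) toward 15-94. In the gaps that stayed until 100 d they did for 129 of 367 (35.1%) and 178 of 406 (43.8%). These shares use the 30 d and 100 d means that chose the unigenes, so they are descriptions and carry no test. The value of 1 read moved the same way in 15-94, from 1.47 at 30 d to 0.86 at 65 d and 1.03 at 100 d (log2), and its part in these shares was not tested.

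**Figure D5:**
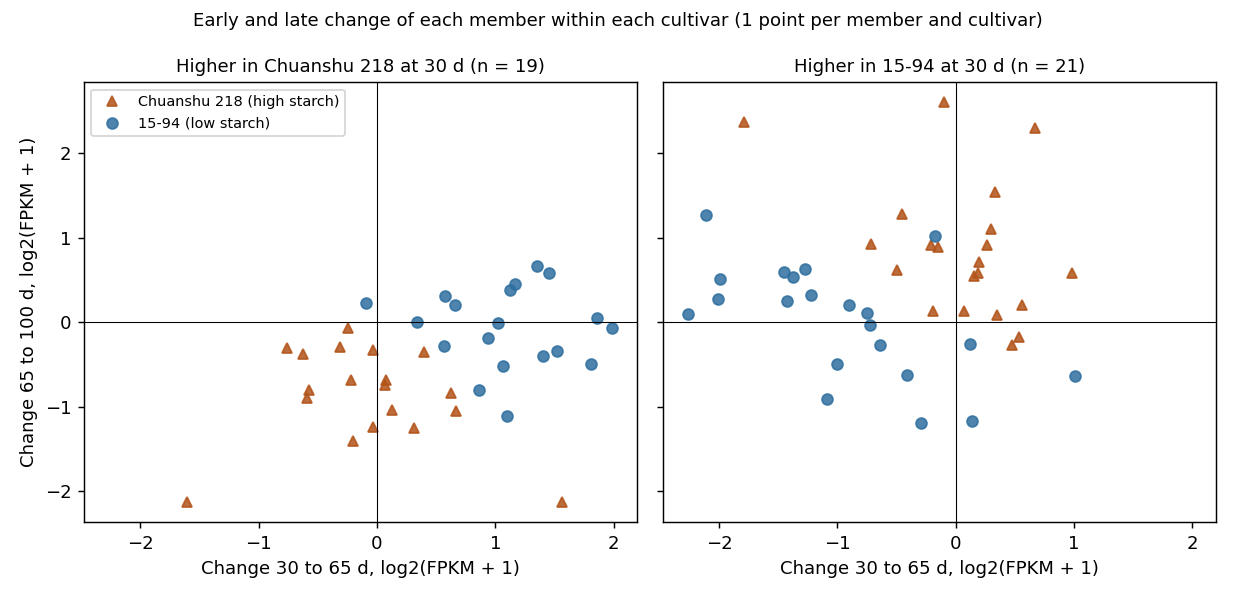
Change of mean log2(FPKM + 1) from 30 to 65 d (horizontal) and from 65 to 100 d (vertical), with 1 triangle per unigene in Chuanshu 218 and 1 circle in 15-94. On the left the circles spread to the right with a median of 1.10 and lie around 0 on the vertical axis, while all 19 triangles lie below 0 on it. The 30 d and 100 d values took part in the choice.

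The group that stood apart from all the rest was more often 15-94 at 30 d. Its 3 libraries lay below all 15 others for 7 of the 19, against 0.584% of the 16616 unigenes, and above all 15 others for 5 of the 21, against 1.08%. The 3 Chuanshu 218 libraries of 30 d lay above all 15 others for 0 of the 19, against 0.0481% of all, and below all 15 others for 0 of the 21, against 0.0602%. The choice used the 30 d values, so these counts describe the unigenes only, and the difference in background between the cultivars belongs to all unigenes. The lowest of the 18 values was in a 15-94 library of 30 d for 16 of the 19. The highest was in Chuanshu 218 at 30 d for 8 and at 65 d for 9. For the 21 the highest value was in 15-94 at 30 d for 13 and at 65 d for 6, and the lowest was in Chuanshu 218 at 30 d for 8 and at 65 d for 9.

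A few of the unigenes varied far more between libraries of 1 group than the rest. Among the 21, 2 with consecutive ID numbers, the seventh and the ninth in size of the 30 d difference, had similar profiles. The more abundant one had 21.6, 2.94 and 5.99 FPKM in Chuanshu 218 at 65 d, against 42.7, 9.15 and 237.8 FPKM in 15-94, and the other had 5.68, 1.16 and 3.10 FPKM against 7.33, 1.53 and 39.5 FPKM. At 100 d the more abundant one had 8.34, 345.7 and 25.5 FPKM in Chuanshu 218, against 89.1, 18.4 and 100.4 FPKM in 15-94. The other had 2.60, 30.2 and 6.57 FPKM in Chuanshu 218 at 100 d, against 14.0, 4.2 and 20.6 FPKM in 15-94. Both were highest in 15-94 replicate 3 at 65 d and in Chuanshu 218 replicate 2 at 100 d among the libraries of their age. The sources used here do not say what the ID numbering stands for. Over the 21 the median SD of log2(FPKM + 1) was 0.60 in Chuanshu 218 at 100 d and 0.55 in 15-94, against 0.38 and 0.44 over the 16616 unigenes. Over the 19 these values were 0.44 and 0.49.

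The choice depends strongly on single libraries of 30 d. Without Chuanshu 218 replicate 1 of 30 d, which had the largest value of 1 read in that cultivar (1.2, log2), 121 unigenes toward Chuanshu 218 and 195 toward 15-94 met the limits. Without replicate 2 or 3 the numbers were 31 and 31 toward Chuanshu 218, and 28 and 34 toward 15-94. Without 15-94 replicate 1, 2 or 3 of 30 d they were 45, 62 and 67 toward Chuanshu 218, and 37, 55 and 42 toward 15-94. Fewer libraries make a gap between all of them easier to reach, so some increase is built into the rule. The numbers without Chuanshu 218 replicate 1 were the largest in both directions, and the cause was not tested. Without 15-94 replicate 3 of 100 d, one of the libraries that stood apart, 24 and 21 unigenes met the limits, of which 15 and 15 were among the 19 and the 21. With 15-94 replicate 2 of 100 d left out, 19 and 18 met them, of which 13 and 11 were among the 19 and the 21. Leaving out 1 library of 100 d kept 13 to 16 of the 19 and 11 to 17 of the 21. Leaving out 1 library of 30 d kept 16 to 19 and 19 to 21.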

How the data were processed

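The authors deposited 1 table of FPKM values for 46840 unigenes of a de novo assembly in 18 root libraries, per the labels and the file headers. Of tools, only edgeR appears in the submitters' processing notes, without its version or task. Which programs assembled, aligned and counted, and whether libraries were scaled further, is not stated there. Since the deposited values are FPKM, read numbers are unknown: no count model was fitted and no counting interval or floor is given. Each column matched 1 library by its title, and 0 pairs of columns were identical.

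Members and lists were chosen with earlier results of these data known. Per direction, the unigene with the largest 30 d difference and the one with the highest overall mean were named. The 65 d test covered the 32529 unigenes that reached 1 FPKM in 3 or more libraries. It used limma 3.58.1 (R 4.3.3) with an eBayes trend, fitted to log2(FPKM + 1) of the 6 libraries of that age. Calls needed a Benjamini-Hochberg adjusted p under 0.05 and a 2-fold difference, which understates low unigenes on this scale. Relative depth came from ratios of low FPKM values, and 88.9% of library pairs lay within 0.05 (log2) of the fit. The limma and depth steps were tested on simulated data. Python 3.11.15 and pandas 2.3.3 did the rest. Alternatives for the 65 d medians and the timing counts were chosen after seeing the data. The cultivars share replicate numbers. Deviations of same-numbered libraries from their group means correlated at 0.34, 0.40 and 0.102 at 65 d, all over 0.1. The numbers were therefore taken as pairs at that age, from the data and not from the labels, but only in the fit with the replicate block. The main 65 d test, with its SEs, adjusted p values and calls, did not use the pairing. The correlations did not all pass at 30 d (0.25, 0.08 and -0.195) or at 100 d (0.004, 0.30 and 0.44).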

Additional observations from a re-analysis of the deposited data

Results flagged for a closer look

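For 3 of the 19 unigenes higher in Chuanshu 218 at 30 d, the cultivars moved in opposite directions with age: every 100 d library lay below every 30 d library in Chuanshu 218 and above every 30 d library in 15-94. For 2 of the 21 higher in 15-94 at 30 d, every 100 d library lay above every 30 d library in Chuanshu 218 and below every 30 d library in 15-94. Over the 16616 unigenes with a mean of at least 5 FPKM these patterns were met by 35 and 44. The difference between the cultivars was not tested for these unigenes, which the 30 and 100 d values had chosen.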

How the results depend on the processing

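The number of unigenes chosen followed the limits. Toward Chuanshu 218 and toward 15-94 it was 62 and 57 at a 30 d ratio of 1.5, 6 and 4 at 3, 6 and 7 at a 100 d limit of 0.25, 57 and 45 at 1, 132 and 44 at an overall mean of 1 FPKM, and 8 and 12 at 10 FPKM. Pseudocounts of 0.1 and 0.5, median-of-ratios scaling and quantile normalization gave 16 to 18 and 16 to 21. Leaving out single libraries gave 15 to 121 and 15 to 195. The calls at 65 d, 1 and 1, were 0 and 0 with no filter, 3 and 4 with all 18 libraries, 2 and 2 with relative depth added to that 18-library fit, 0 toward 15-94 with a pseudocount of 0.1, and 0 to 2 in each direction without single libraries. Over all unigenes the 1043 higher and 762 lower calls became 647 and 444 with no filter, 2012 and 1311 with all 18 libraries, 2060 and 1324 with relative depth added to the 18-library fit, and 113 to 1242 and 73 to 697 without single libraries. The cause was not tested. Without single libraries, the 30 to 100 d median change ran from -0.91 to -0.58 in Chuanshu 218 for the 19, and from -1.08 to -0.87 in 15-94 for the 21. The 65 d difference ran from 0.64 to 2.38 for Iba_14682, from 1.2 to 2.75 for Iba_34435, from -3.65 to 0.20 for Iba_24021 and from -0.28 to 0.22 for Iba_40236. Without single libraries the median 65 d difference ran from 0.52 to 1.08 for the 19 and from -1.15 to -0.55 for the 21. The count of Chuanshu 218 means at 65 d nearer to 30 d ran from 12 to 16 for the 19 and from 10 to 18 for the 21. The count of 15-94 means at 65 d nearer to 100 d ran from 15 to 19 and from 12 to 17.

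With the replicate block at 65 d, 2 and 2 of the chosen unigenes and 1377 and 1062 of all were called, and none of the 4 named unigenes passed in that fit.

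The absolute depth is unknown, so how near low values lie to 1 read cannot be told.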
